A study of Mus musculus with 3 samples.

Results

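Mononuclear cells of the costal diaphragm other than fibro-adipogenic progenitors (FAPs) were compared between male WT mice fed a control diet (CD) and male WT mice fed a high-fat diet (HFD). Cells were taken as barcodes without a UMI of Pdgfra, the receptor that marks FAPs, and placed in 4 gates by the UMIs of a few marker genes. A UMI (unique molecular identifier) tags 1 captured mRNA molecule. The muscle stem gate required 2 or more UMIs over Pax7, Myf5 and Cdh15 and no UMI of the leukocyte gene Ptprc. The endothelial gate required 3 or more UMIs over Pecam1, Flt1 and Ptprb and no UMI of Ptprc. The macrophage gate required 5 or more UMIs over C1qa, C1qb and C1qc, and the B gate 3 or more over Cd79a and Cd79b. In all, 2342 of the 7906 WT barcodes met a gate (1203 WT CD and 1139 WT HFD), out of 12275 barcodes in the series.

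Muscle stem cells, also called satellite cells, lie quiescent under the basal lamina of the myofiber until injury recalls them to divide and differentiate. Endothelial cells of muscle move circulating fatty acids toward the fibers, and the diaphragm also has a dense bed of lymphatic vessels that drain the peritoneal cavity. Its macrophages clear debris and take up lipid, and B cells give rise to plasma cells that secrete immunoglobulin. Long feeding of fat can raise the supply of fatty acids to tissues, which was not measured here. Fatty acids are ligands of the PPAR transcription factors, which control genes of fatty acid uptake and oxidation.

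Both groups were C57Bl/6J mice kept on their diet for 6 months, and the HFD gave 45% of its calories as lipid. The study's methods give a normal chow as the CD, and the paper leaves a CD matched in micronutrients to later work. Tissue from 2 mice was combined for each library, the cells were freed with collagenase II, dead cells were removed by flow cytometry, and RNA was captured with 10x Genomics 3′ chemistry. Another library came from B6.129S2-Thbs1tm1Hyn/J mice, which lack thrombospondin 1 in all tissues (KO), after 6 months of HFD, and its values are set beside the others with their order but no fold. Since each diet is represented by 1 library and the mouse of a cell was not recorded in the data used, no difference has a replicate check and no p-value was computed.

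The WT CD library held 34312860 UMIs in 4132 barcodes (median 7632.5 UMIs and 2298.5 genes), the WT HFD library 31967976 UMIs in 3774 barcodes (8041.5 UMIs and 2542 genes) and the KO HFD library 36478779 UMIs in 4369 barcodes (7554 UMIs and 2428 genes). The WT CD and WT HFD libraries shared 7 barcode sequences, WT CD and KO HFD 7, and WT HFD and KO HFD 2. The WT CD library stood apart in its immunoglobulin genes, which took 3.54% of its UMIs, against 0.246% in WT HFD and 0.400% in KO HFD. Results that rest on these genes are given with and without them.

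The muscle stem gate held 301 WT CD and 260 WT HFD barcodes, and the endothelial gate 307 and 351. The macrophage gate held 188 and 378, and the B gate 424 and 166. As a share of all barcodes of their library, macrophages were 4.55% in WT CD, 10.0% in WT HFD and 8.19% in KO HFD, and B cells 10.3%, 4.40% and 2.22%. Muscle stem barcodes were 7.28%, 6.89% and 9.98%, and endothelial barcodes 7.43%, 9.30% and 6.16%. The genes of a gate fixed these numbers. Exactly at the threshold of the muscle stem gate lay 77 WT CD and 47 WT HFD barcodes, and 83 and 43 lay 1 UMI below it. For the endothelial gate 19 and 32 barcodes lay at the threshold and 28 and 37 just below, for the macrophage gate 1 and 5 at it and 2 and 2 below, and for the B gate 4 and 2 at it and 3 and 6 below. A barcode in more than 1 gate can hold more than 1 cell, and 17 WT CD and 16 WT HFD barcodes did so, of which 11 and 10 were in both the macrophage and the B gate.

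Levels are the summed UMIs of a gene per 1000000 summed UMIs of the gate (CPM). The labels of the gates were checked on markers that the gates did not use. Chodl, a lectin of muscle stem cells, stood at 438 CPM in WT CD and 666 CPM in WT HFD in the muscle stem gate and at most 15.6 CPM in the other gates of these libraries. Cdh5, the cadherin of endothelial junctions, stood at 1013 and 851 CPM in the endothelial gate and at most 16.2 CPM elsewhere. Csf1r, the receptor that macrophages need to survive, stood at 420 and 426 CPM in the macrophage gate and reached 41.2 CPM in the B gate, and Ms4a1, the B cell surface protein CD20, stood at 637 and 927 CPM in the B gate and reached 26.6 CPM in the macrophage gate. These 4 were chosen after their values were seen. The genes that defined a gate differed by less than 1.5-fold between the diets. Pax7, the transcription factor of muscle stem cells, stood at 327 CPM in WT CD and 317 CPM in WT HFD, and Pecam1, an endothelial adhesion molecule, at 928 and 915 CPM. C1qa, a complement subunit made by macrophages, stood at 3320 and 3605 CPM, and Cd79a, a signaling chain of the B cell receptor, at 1890 and 2400 CPM. Adipocyte markers summed to at most 5.19 CPM in the muscle stem, endothelial and macrophage gates.

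A gene was counted as higher or lower when its CPM differed at least 1.5-fold between the diets (0.58 on the log2 scale) and reached 50 CPM in 1 of the 2 libraries. In the muscle stem gate 328 of 2512 genes (13.1%) were higher in WT HFD and 73 (2.91%) were lower. In the endothelial gate 226 of 3283 genes (6.88%) were higher and 73 (2.22%) lower, and in the macrophage gate 120 of 2463 (4.87%) were higher and 66 (2.68%) lower. In the B gate 418 of 2114 genes (19.8%) were higher and 46 (2.18%) lower. These shares are the background for every count that follows. A gene can pass the floor of 50 CPM through 1 library only, and then its difference helped it pass, so where it changes a list's calls the count is also given over genes whose mean of the 2 libraries was 50 CPM or more, a filter added after the values were seen. By that filter 10.5% of genes were higher and 2.52% lower in the muscle stem gate, 5.4% and 1.66% in the endothelial gate, 4.2% and 2.01% in the macrophage gate, and 16.2% and 1.94% in the B gate. The number of genes between 1.5- and 1.6-fold was 110, 88, 49 and 163 in the 4 gates, in the same order, and 185, 155, 82 and 251 lay between 1.4- and 1.5-fold.

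The scale carried part of this imbalance. The median log2 ratio of WT HFD to WT CD over all measured genes was 0.19 in the muscle stem gate, 0.05 in the endothelial gate, 0.07 in the macrophage gate and 0.35 in the B gate. In the B gate of WT CD, 21.5% of UMIs were immunoglobulin, against 5.11% in WT HFD, so all other genes shared a smaller part of the total. Scaling by the trimmed mean of M values (TMM), which centers the bulk of genes, gave 151 higher and 164 lower genes in the muscle stem gate, 173 and 117 in the endothelial gate, 104 and 77 in the macrophage gate, and 63 and 104 in the B gate. Higher genes made up 81.8% of the calls in the muscle stem gate by CPM and 47.9% by TMM, and 90.1% and 37.7% in the B gate. With immunoglobulin genes left out of all totals, 109 genes were higher and 66 lower in the B gate, in place of 418 and 46. By TMM every log2 ratio is lower than by CPM by the same amount within a gate, 0.41 in the B gate, 0.20 in the muscle stem gate, 0.07 in the endothelial gate and 0.04 in the macrophage gate, and log2 ratios are by CPM unless TMM is named.

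**Figure D1:**
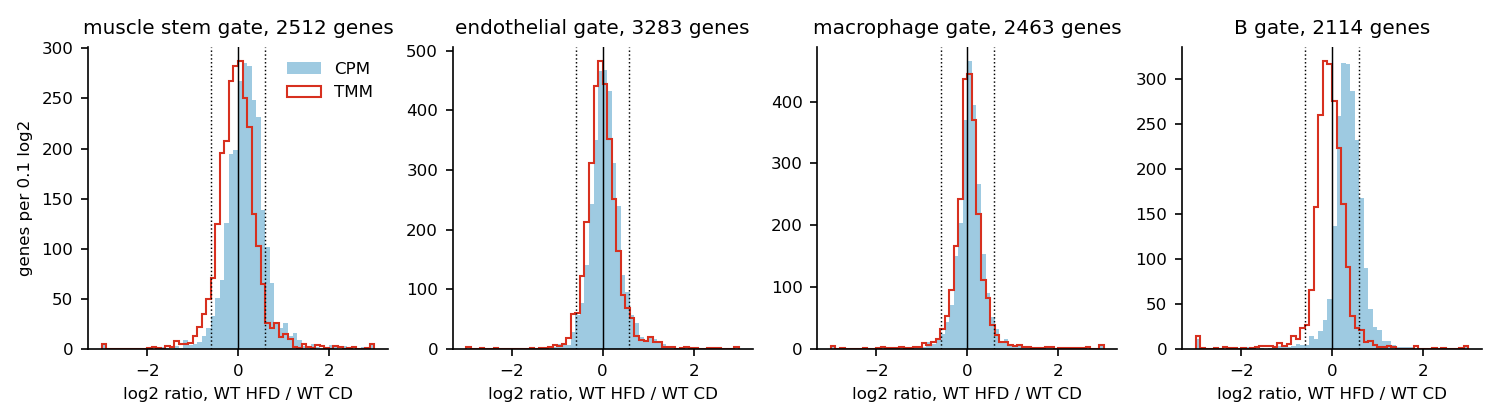
Distribution of the log2 ratio of WT HFD to WT CD over the measured genes of each gate (genes per bin of 0.1), scaled by CPM (filled) and by TMM (red outline). Dotted lines mark 1.5-fold in either direction, and the CPM distribution of the B gate sits to the right of 0 with a median of 0.35.

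Few genes moved alike across gates. Of the genes measured in at least 1 gate, 946 were higher in exactly 1 gate, 67 in 2, 4 in 3 and 0 in 4. For lower genes the counts were 203, 14, 5 and 3. A gene had to be measured in several gates to be counted there, and 1349 genes were measured in all 4, 510 in 3, 848 in 2 and 1750 in 1. The 4 higher genes were Fabp4, Timp2, Ucp2 and Marcksl1, and by TMM only Fabp4 was higher in 3 gates. The 8 lower genes were 3 heat shock genes (Hspa1a, Hspa1b and Hspb1), 3 immunoglobulin-related genes (Igkc, Ighm and Jchain), Tmem176a and Irgm1. The gates came from the same pair of libraries and are not replicates of the diet. In the muscle stem, endothelial, macrophage and B gates, 13.1, 6.88, 4.87 and 19.8% of genes were higher. The lower shares were 2.91, 2.22, 2.68 and 2.18%. The overlap that such shares give by themselves was not computed, so the counts do not show a shared response.

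Hspa1a and Hspa1b, which encode the stress-inducible HSP70 chaperone, and Hspb1, which encodes the small chaperone HSP27, were lower in WT HFD in the muscle stem, endothelial and macrophage gates. Heat shock factor 1 binds inverted repeats of the bases GAA in the promoters of such genes and switches them on when proteins misfold. The search for 1 such pair on either strand, the letters GAANNTTC, was added after the values were seen. The promoter windows of RefSeq (build GRCm38.p6, from 250 bases before the start) held it in Hspa1a, Hspa1b and Hspb1, and in none of the other 6 genes moving alike that had a window. Of 27025 promoters in the same table, 7.95% held it. The full heat shock element, which contains such pairs, was in 0 of the 9 windows and in 0.529% of all promoters. The GC box (GGGCGG, on either strand) was in these 3 windows too, but also in 4 of the other 6 and in 35.9% of all promoters. The stretches that hold the pair are shown. Capitals mark the matching letters. The stretches of Hspa1a (chr17:34972223-34972290, minus strand) and Hspb1 (chr5:135887772-135887859, plus strand) read 5′ to 3′ as follows.
Hspa1a: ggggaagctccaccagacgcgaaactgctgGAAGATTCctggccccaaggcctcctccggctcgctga
Hspb1: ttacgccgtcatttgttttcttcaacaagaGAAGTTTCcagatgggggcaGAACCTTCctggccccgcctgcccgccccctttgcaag
The stretch of Hspa1b (chr17:34959305-34959372, minus strand) had the same 68 bases as that of Hspa1a, with the match 104 bases before the start in both. Hspb1 held 2 matches, 117 and 97 bases before the start. A match describes the letters only. The 3 genes lie at chromosome 17, 34969190 to 34972156 (Hspa1a), chromosome 17, 34956436 to 34959238 (Hspa1b), and chromosome 5, 135887919 to 135889563 (Hspb1).

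Hspa1a in the muscle stem gate stood at 1050 CPM in WT CD, 458 CPM in WT HFD and 467 CPM in KO HFD, 2.29-fold lower in WT HFD than in WT CD (log2 ratio -1.20, 95% Poisson interval -1.32 to -1.07). In the endothelial gate it stood at 1563, 575 and 916 CPM, 2.72-fold lower, and in the macrophage gate at 1274, 695 and 983 CPM, 1.83-fold lower. WT CD was the highest of the 3 libraries in each of these gates. Hspa1b stood at 636, 283 and 254 CPM in the muscle stem gate, 944, 421 and 561 CPM in the endothelial gate and 899, 405 and 573 CPM in the macrophage gate, with log2 ratios of -1.17, -1.16 and -1.15. Hspa1a and Hspa1b are near-identical copies, so the division of UMIs between them is uncertain. Hspb1 stood at 927, 463 and 455 CPM in the muscle stem gate, 1883, 1180 and 1312 CPM in the endothelial gate and 95.5, 52.3 and 61.9 CPM in the macrophage gate. Its log2 ratio in the endothelial gate, -0.67, was -0.51 without lymphatic barcodes, short of the threshold.

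The B gate went the other way by CPM, with Hspa1a at 89.0 CPM in WT CD and 179 CPM in WT HFD (log2 ratio 1.01), but this rested on barcodes that also met another gate. Without them the log2 ratio in the B gate was -0.16 for Hspa1a and -0.31 for Hspa1b. FAPs, taken as barcodes with a Pdgfra UMI in the same libraries, had 332 CPM of Hspa1a in WT CD, 166 CPM in WT HFD and 230 CPM in KO HFD. Over the list of heat shock chaperones, 3 of 18 measured genes were lower in the muscle stem gate, 3 of 17 in the endothelial gate and 4 of 16 in the macrophage gate, where Hsph1 (78.4, 42.0 and 60.9 CPM) was the fourth. None of the list was higher in these gates, and by TMM 9, 4 and 5 members were lower. Its median log2 ratio was -0.33, -0.32 and -0.40, below the medians of all genes given above. Hspa8, the constitutive HSP70, stood at 2984 CPM in WT CD and 2286 CPM in WT HFD in the muscle stem gate, a log2 ratio of -0.38 by CPM, short of the threshold, and of -0.59 by TMM, past it. Chaperone mRNA also depends on the handling of the tissue. The study's methods give 1 day of isolation for all libraries, and with 1 library a diet any difference in handling within that day cannot be told apart from diet.

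Ucp2 encodes a mitochondrial inner membrane carrier of the uncoupling protein family and is a known PPAR target. It lies at chromosome 7, 100493337 to 100502020 on the plus strand (GRCm38). Its level in the muscle stem gate was 12.9 CPM in WT CD, 87.2 CPM in WT HFD and 39.1 CPM in KO HFD, 6.76-fold higher in WT HFD than in WT CD (log2 ratio 2.76, 95% interval 2.08 to 3.51). It was found in 16 of 301 barcodes in WT CD and in 82 of 260 in WT HFD, with no more than 7 UMIs in a barcode, and its log2 ratio stayed between 2.47 and 2.94 over the alternatives. In the B gate it stood at 130 CPM in WT CD, 276 CPM in WT HFD and 218 CPM in KO HFD (log2 ratio 1.08, 0.67 by TMM). In the endothelial gate the values were 106, 159 and 142 CPM (0.59), just past the threshold and short of it by TMM (0.52), and in the macrophage gate 375, 547 and 578 CPM (0.54), just short of it. Both HFD libraries were above WT CD in all 4 gates. FAPs had 9.26, 15.2 and 19.8 CPM.

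Timp2 encodes a secreted inhibitor of matrix metalloproteinases. It stood at 120 CPM in WT CD, 269 CPM in WT HFD and 269 CPM in KO HFD in the endothelial gate (log2 ratio 1.17, interval 0.90 to 1.44), and at 413, 757 and 528 CPM in the macrophage gate (0.87). In the B gate it stood at 30.6, 58.8 and 35.6 CPM (0.94, 0.53 by TMM), where it passed the floor through WT HFD only and not by the mean of the 2 libraries. It was 236 CPM in WT CD and 269 CPM in WT HFD in the muscle stem gate, a difference below the threshold. Marcksl1, which encodes an actin-binding protein of the MARCKS family, was higher in the muscle stem gate (104 to 160 CPM), the endothelial gate (64.9 to 97.4 CPM) and the B gate (45.0 to 77.0 CPM). The log2 ratios were 0.62, 0.59 and 0.77, and by TMM 0.42, 0.51 and 0.36, short of the threshold in each gate. Without lymphatic and mural barcodes the endothelial value was 0.08.

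Fabp4, the fatty acid binding protein that muscle endothelium expresses in abundance, was higher in 3 gates, but not in the endothelial gate where it is most abundant. In the endothelial gate it was at 12375 CPM in WT CD, 13731 CPM in WT HFD and 13977 CPM in KO HFD, a log2 ratio of 0.15. In the macrophage gate it was at 132 CPM in WT CD, 468 CPM in WT HFD and 149 CPM in KO HFD (log2 ratio 1.82), in 28 of 188 and 122 of 378 barcodes of the WT libraries, and without the barcodes of the Prg4 set described below the log2 ratio was 0.44, short of the threshold. In the muscle stem gate it went from 4.51 to 144 CPM, but 157 of the 239 UMIs in WT HFD lay in 1 barcode, and without barcodes in more than 1 gate the log2 ratio of 4.99 became 0.89. In the B gate it went from 38.1 to 273 CPM, and without its 2 top barcodes the log2 ratio of 2.84 became 0.86. Endothelial markers summed to 28.4 CPM in the muscle stem gate of WT CD and 102 CPM in that of WT HFD, with Egfl7 the most abundant, and to 36.3 and 140 CPM in the B gate, with Pecam1 the most abundant. Mural markers, led by Rgs5, summed to 3.45 and 111 CPM in the B gate. Their part in the result was not tested beyond these values.

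**Figure D2:**
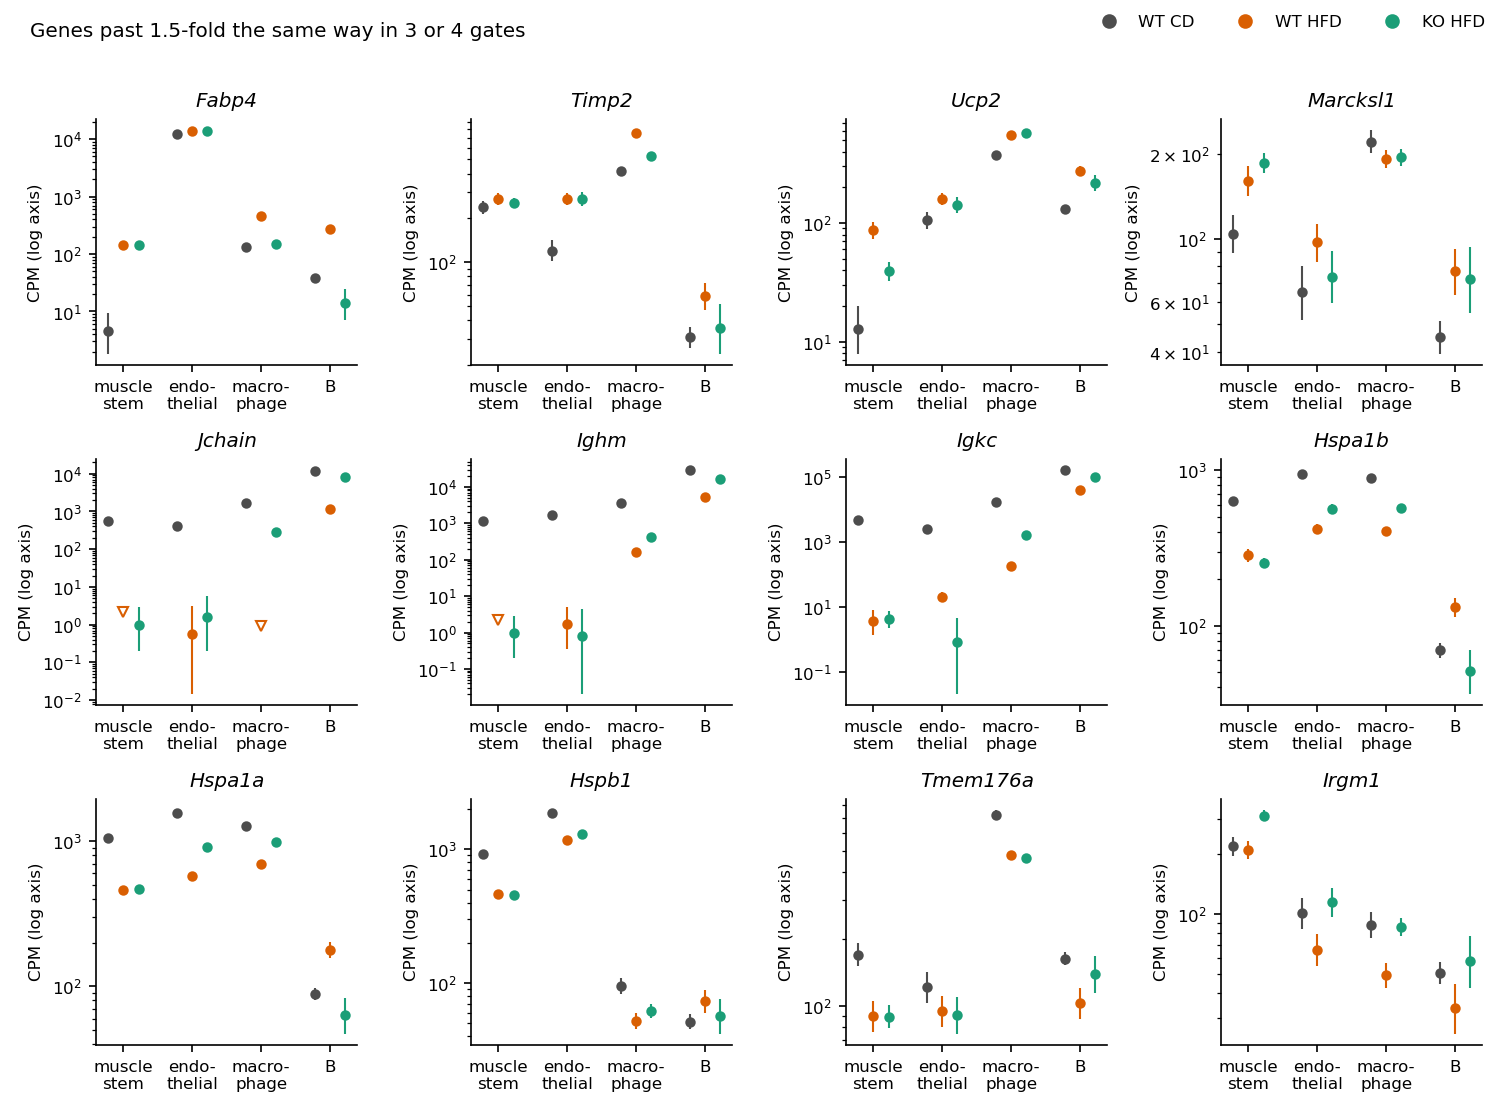
Levels of the 12 genes called in the same direction in 3 or 4 gates, as CPM on a log axis, for each gate and library (WT CD gray, WT HFD orange, KO HFD green), with 95% Poisson intervals; open triangles mark the upper bound where no UMI was counted. Hspa1a, Hspa1b and Hspb1 are highest in WT CD in the muscle stem, endothelial and macrophage gates, and Ucp2 is lowest in WT CD in all 4.

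The immunoglobulin-related genes were lower in all 4 gates, and outside the B gate they lay in very few barcodes. Igkc, the constant region of the kappa light chain, stood in the B gate at 163560 CPM in WT CD, 41323 CPM in WT HFD and 100400 CPM in KO HFD, 3.96-fold lower in WT HFD than in WT CD. Jchain, which joins secreted IgM and IgA into polymers and marks plasma cells, stood at 12190, 1174 and 8017 CPM there, 10.4-fold lower. Ighm, the IgM heavy chain, stood at 28409, 5324 and 16156 CPM, 5.34-fold lower. Of the B gate's barcodes, 84 of 424 in WT CD (19.8%, exact 95% interval 16.1 to 23.9%), 6 of 166 in WT HFD (3.61%, 1.34 to 7.70%) and 8 of 97 in KO HFD (8.25%, 3.63 to 15.6%) held 10 or more UMIs of Jchain. Without these barcodes the log2 ratio was -0.38 for Ighm, short of the threshold, -0.64 for Igkc and -1.38 for Jchain.

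In the other gates the same genes came with few barcodes. In the muscle stem gate of WT CD, 7531 of 7703 UMIs of Igkc and 875 of 890 UMIs of Jchain lay in 1 barcode, and WT HFD had 0 UMIs of Jchain. In the endothelial gate 3189 UMIs of Igkc and 517 of 527 UMIs of Jchain lay in 1 barcode of WT CD. In the macrophage gate of WT CD, 3427 UMIs of Jchain lay in 12 barcodes, with at most 1282 in 1, and 4 of 188 barcodes held 10 or more. In this gate Ighm stood at 3709 CPM in WT CD and 166 CPM in WT HFD (log2 ratio -4.48), and without barcodes that met another gate the log2 ratio was -0.19. FAPs had 6248 CPM of Igkc in WT CD and 105 CPM in WT HFD. Reads of near-identical variable and constant segments can be divided between genes by the counting, so single immunoglobulin genes are uncertain.

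Tmem176a encodes a membrane protein of myeloid and antigen-presenting cells. It was lower in the muscle stem gate (170 to 89.6 CPM, KO HFD 89.4 CPM) and in the macrophage gate (723 to 476 CPM, KO HFD 462 CPM), where its log2 ratio of -0.60 was -0.48 after thinning every barcode to 3000 UMIs and -0.37 without the barcodes of the Prg4 set described below, short of the threshold. In the B gate it was lower by CPM (163 to 103 CPM), and higher without Jchain-rich barcodes, with a log2 ratio of 0.86. Irgm1, an interferon-inducible GTPase, was lower in the endothelial gate (101 to 66.3 CPM), the macrophage gate (88.4 to 49.3 CPM) and the B gate (50.7 to 33.8 CPM). In the B gate it passed the floor through WT CD only and not by the mean of the 2 libraries. Its levels in KO HFD were 115, 86.5 and 58.4 CPM, at or above WT CD in the endothelial and B gates. Without the subsets of barcodes described below, its log2 ratio went from -0.61 to -0.56 in the endothelial gate and from -0.84 to -0.50 in the macrophage gate, both short of the threshold.

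Of the list of PPAR targets and fatty acid oxidation genes, 13 of 30 were measured in the muscle stem gate, and 10 of these (76.9%) were higher in WT HFD and 0 lower, against 13.1% of all genes higher, with a median log2 ratio of 0.89. Of the 10, 6 passed the floor through WT HFD only, so this count is a description. By the mean of the 2 libraries 10 members were measured, 7 of them higher and 0 lower. By TMM 7 were higher and 0 lower, with a median of 0.69. Acadl, the long-chain acyl-CoA dehydrogenase, stood at 49.6 CPM in WT CD, 126 CPM in WT HFD and 86.1 CPM in KO HFD (log2 ratio 1.34, interval 0.96 to 1.74). Ech1, an auxiliary enzyme for unsaturated fatty acids, stood at 69.0, 160 and 117 CPM (1.21). Cpt1a, which commits long-chain fatty acids to mitochondrial entry, stood at 26.4, 61.3 and 52.3 CPM (1.21). The WT HFD library was the highest and WT CD the lowest for all 3 of these enzymes.

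Fabp3, the heart and muscle type fatty acid binding protein, stood at 17.4, 63.1 and 44.4 CPM (log2 ratio 1.86). Etfb, which passes electrons from the acyl-CoA dehydrogenases, stood at 78, 145 and 113 CPM (0.89). Acadm, Acaa2, Eci1, Eci2 and Ucp2 were the other members past 1.5-fold. The measured members below it were Hadha (58.0 and 83.0 CPM), Hadhb and Txnip. Pdk4 (32.9 and 32.5 CPM) was under the floor in both WT libraries. UMIs were spread over cells, with Acadl found in 61 of 301 WT CD and 121 of 260 WT HFD barcodes. Median depth per barcode was also greater in WT HFD (5582.5 UMIs) than in WT CD (4613 UMIs). With every barcode thinned to 3000 UMIs, the log2 ratio of Acadl was 1.55. Myofiber markers, led by Acta1, summed to 284 CPM in WT CD, 541 CPM in WT HFD and 373 CPM in KO HFD in this gate, and their part in the result was not tested. The same list had 3 of 13 higher in the endothelial gate, 2 of 10 in the macrophage gate and 4 of 8 in the B gate, with 0 lower in each. By TMM these counts were 0, 2 and 2, and by the mean of the 2 libraries 3 of 6 were higher in the B gate.

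Sterol synthesis genes are switched on by SREBP2 when membrane cholesterol is low. Of the 22 genes of the sterol list only 5 were measured in the muscle stem gate, and 4 of these were lower and 0 higher, with a median log2 ratio of -1.31, against 2.91% of all genes lower. The 4 passed the floor of 50 CPM through WT CD and not through WT HFD, so the count is a description and supports nothing about the list, of which 2 were measured and 1 lower by the mean of the 2 libraries. Idi1, which isomerizes isopentenyl diphosphate, stood at 79.3 CPM in WT CD, 24.7 CPM in WT HFD and 40.1 CPM in KO HFD, 3.22-fold lower (log2 ratio -1.69, interval -2.23 to -1.17). Cyp51, the lanosterol demethylase, stood at 60.0, 19.2 and 35.1 CPM (-1.64), and Fdps, which makes farnesyl diphosphate, at 62.5, 25.3 and 32.1 CPM (-1.31). Insig1, the sterol-sensing retention protein of SREBP, stood at 59.3, 28.3 and 43.7 CPM (-1.07). KO HFD lay between the WT libraries for all 4. The endothelial and B gates had 0 members of the list above the floor, and the macrophage gate had 2, neither of them past 1.5-fold.

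Immediate early and TGF-beta response genes were lower in the muscle stem gate in part. Of 23 immediate early genes, 4 were lower (Egr3, Nr4a2, Nr4a3 and Klf4) and 1 was higher (Klf2), with a median log2 ratio of -0.27. By TMM 8 were lower and 1 higher. Nr4a2, an orphan nuclear receptor induced within minutes of a stimulus, stood at 133 CPM in WT CD, 38.5 CPM in WT HFD and 59.9 CPM in KO HFD (log2 ratio -1.79). Klf4, a zinc finger factor linked to cell cycle exit, stood at 1102, 688 and 821 CPM. Fos, a subunit of the AP-1 transcription factor, stood at 4458 and 5202 CPM in the WT libraries and was not called. Of 13 TGF-beta response genes, 5 were lower and 1, Col4a1, was higher (7 and 1 by TMM). Smad7, the inhibitory Smad, stood at 175, 100 and 95 CPM, and Ccn2 at 79.9, 35.5 and 46.7 CPM. Skil and Id1 were also lower. Immediate early genes also answer to tissue dissociation, which was not measured, so diet and dissociation cannot be told apart.

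Matrix genes differed in both directions. Of 17 measured, 7 were higher and 2, among them Timp3, were lower in the muscle stem gate, and by TMM 4 were higher and 4 lower. Sparc, a collagen-binding matricellular protein, stood at 568 CPM in WT CD, 1226 CPM in WT HFD and 879 CPM in KO HFD (log2 ratio 1.11, interval 1.0 to 1.23). Mmp2, a gelatinase, stood at 30.3, 104 and 119 CPM (1.78), and Col15a1, a basement membrane collagen, at 76.1, 152 and 163 CPM (1.0). FAP markers, led by Gsn, summed to 953, 1145 and 1193 CPM in this gate, against 39681, 38931 and 41146 CPM in FAPs. With barcodes holding a Pdgfra UMI let back in, the log2 ratio of Mmp2 was 0.87, and without the barcodes highest in Dcn and Col3a1 the log2 ratio of Sparc was 1.19. Among quiescence and Notch genes, 3 of 18 were higher (Heyl, Col5a3 and Itga7) and 0 lower, and by TMM 1 was higher and 1 lower. Heyl, a Notch target, stood at 65.1, 117 and 91.7 CPM.

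A few barcodes carried genes of division and differentiation. Of 18 cell cycle genes 9 were measured in the muscle stem gate, and 8 were higher in WT HFD, with a median log2 ratio of 1.35, but 4 of the 8 passed the floor through WT HFD only. By the mean of the 2 libraries 5 were measured and 4 were higher. With every barcode given the same weight 3 were higher. Without the barcodes counted below 2 were, and 2 list members, Top2a and Mki67, helped define those barcodes. Myog, the transcription factor of differentiating myoblasts, had 1 UMI in 1 barcode of WT CD (0.645 CPM), 378 UMIs in 7 barcodes of WT HFD (227 CPM) and 303 UMIs in 9 barcodes of KO HFD (100.3 CPM). Top2a, a topoisomerase of dividing cells, was found in 1, 13 and 14 barcodes (10.3, 86.6 and 60.6 CPM). Barcodes with 2 or more UMIs over Myog, Mymk, Top2a and Mki67 numbered 2 of 301 in WT CD (0.664%, interval 0.0806 to 2.38%), 15 of 260 in WT HFD (5.77%, 3.26 to 9.34%) and 21 of 436 in KO HFD (4.82%, 3.01 to 7.27%). Actc1, cardiac alpha-actin, had 0 UMIs in WT CD and 88.4 CPM in WT HFD, at least 45.7-fold higher against a floor of 3 counts, in 4 barcodes. With each gate threshold doubled, Myog had 1 UMI in each WT library and Actc1 had 0, and no ratio could be given. Myod1, expressed from activation onward, was nearly level at 172 and 179 CPM.

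A set of 58 genes was more than 2-fold higher in the muscle stem gate with intervals that did not overlap and under 1.2-fold in every other gate where they were measured. Of these, 38 were measured in no other gate. The largest were Myog, Actc1, Nts, Top2a and Ecrg4. Nts, the precursor of neurotensin, had 95 of its 99 UMIs in 1 barcode of WT HFD. Ecrg4, a secreted peptide precursor, stood at 12.3, 84.2 and 5.96 CPM, with 52 of 140 WT HFD UMIs in 1 barcode. Among genes spread over more cells, Ttyh1, a membrane protein of the tweety family, stood at 16.1, 82.4 and 62.2 CPM and was found in 20 of 301 WT CD and 83 of 260 WT HFD barcodes. Ppp1r14a, an inhibitor of myosin phosphatase, stood at 14.8, 64.3 and 42.0 CPM. Another 9 genes were lower in this way, led by the variable segment Igkv19-93 (1 barcode), Nr4a2, Idi1, Cyp51 and Nr4a3. Ttyh1 and Ppp1r14a were chosen after their values were seen.

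**Figure D3:**
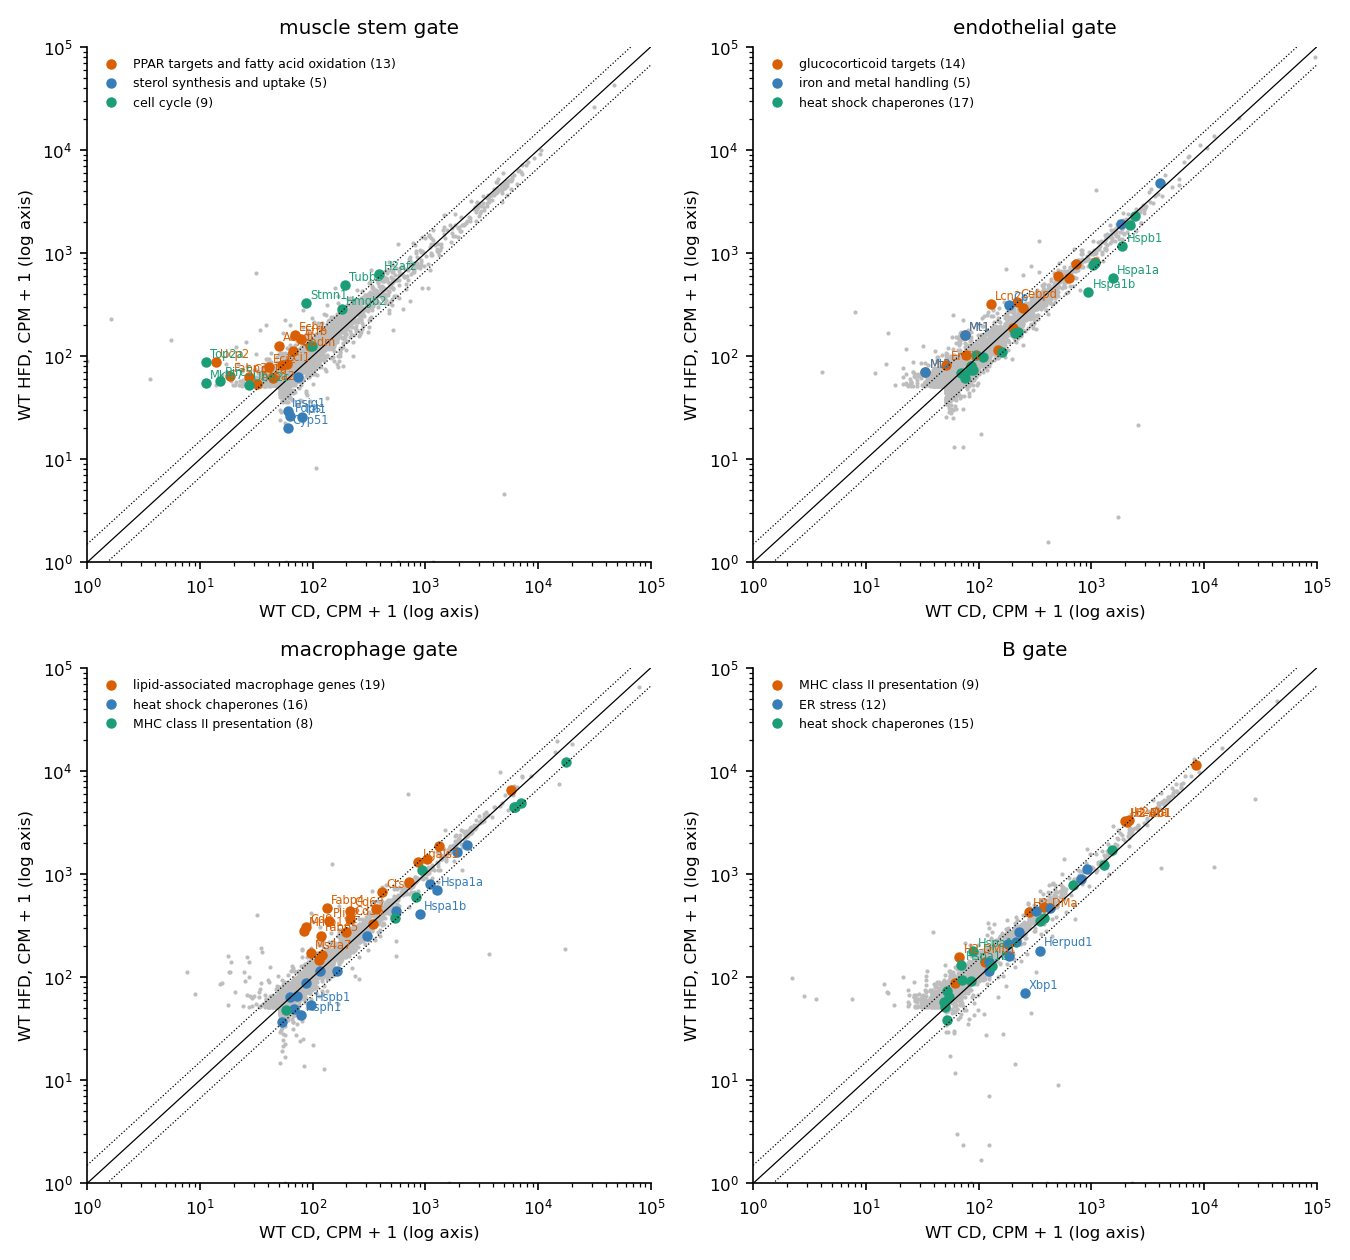
Level of each measured gene in WT HFD against WT CD (CPM + 1, log axes) in the 4 gates, with 3 gene lists colored in each panel, the number measured in parentheses, and called members named. The solid line marks equal levels and the dotted lines 1.5-fold, and in the muscle stem panel 10 of 13 PPAR and fatty acid oxidation genes lie above the upper dotted line and 4 of 5 sterol genes below the lower one. Of these 10, 6 passed the floor of 50 CPM through WT HFD only, and the 4 sterol genes passed it through WT CD only. These counts are therefore descriptions.

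In the endothelial gate the gene with the largest fold among those lower in that gate alone was Cyp26b1, which encodes an enzyme that degrades retinoic acid (chromosome 6, 84571414 to 84593908, minus strand, GRCm38). It stood at 103 CPM in WT CD, 16.7 CPM in WT HFD and 16.2 CPM in KO HFD, 6.17-fold lower in WT HFD than in WT CD (log2 ratio -2.63, interval -3.26 to -2.04). It was found in 56 of 307 WT CD and 17 of 351 WT HFD barcodes, and over the alternatives its log2 ratio ran from -2.93 to -2.33. Nrarp, a feedback inhibitor of Notch signaling, stood at 196, 92.2 and 113 CPM (-1.09). Tcf15, a transcription factor of the capillary endothelium of heart and muscle, stood at 799, 435 and 416 CPM (-0.88, and -0.54 without lymphatic and mural barcodes, short of the threshold). Both HFD libraries were below WT CD for all 3 genes. Cystm1 and Runx1t1 were lower too, and Wdcp (60.2 to 12.1 CPM) had 36 of its 77 WT CD UMIs in 1 barcode.

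Lymphatic barcodes were a larger share of the endothelial gate in WT HFD than in WT CD. Barcodes with 2 or more UMIs over Prox1, Mmrn1 and Ccl21a made up 33 of 307 in WT CD (10.7%, interval 7.52 to 14.8%), 79 of 351 in WT HFD (22.5%, 18.2 to 27.2%) and 41 of 269 in KO HFD (15.2%, 11.2 to 20.1%). Mmrn1, a marker of lymphatic endothelium, stood at 290, 744 and 497 CPM. Nr2f2, which specifies venous and lymphatic identity, stood at 57.1, 153 and 104 CPM (log2 ratio 1.43), and Reln, secreted by lymphatic endothelium, at 69.6, 172 and 155 CPM. Lcn2, an iron-siderophore binding protein, stood at 127, 317 and 228 CPM and was found in 23, 72 and 37 barcodes. Without lymphatic barcodes, 0 UMIs of Slc45a3, which was 3-fold higher in the whole gate, were left in either WT library, and 0 and 1 UMI of Reln. The log2 ratios of Nr2f2 and Lcn2 were 1.47 and 1.27 without them, past the threshold. In summed counts, fewer cells of a type and less RNA per cell cannot be told apart.

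Ctnnal1, an alpha-catenin-like protein, stood at 20.3, 75.5 and 52.7 CPM and was found in 17 and 68 barcodes of the WT libraries. Its log2 ratio of 1.89 ran from 1.6 to 2.21 over the alternatives. Genes of contractile mural cells were also among those higher in this gate alone. Myh11, smooth muscle myosin, stood at 3.13, 68.6 and 30.8 CPM in 4, 9 and 6 barcodes, Tagln at 71.1, 224 and 373 CPM, and Myl9 at 10.9, 67.4 and 119 CPM. Mural markers, led by Rgs5, summed to 88.3 CPM in WT CD, 282 CPM in WT HFD and 269 CPM in KO HFD here. Barcodes with 2 or more UMIs over Rgs5, Myh11 and Notch3 were 17 of 307 and 17 of 351, and without the gate's lymphatic and mural barcodes, which Myh11 helped define, each WT library had 2 UMIs of Myh11. Without the same barcodes the log2 ratio of Tagln went from 1.66 to 0.53 and that of Myl9 from 2.62 to 0.18, short of the threshold. In all, 40 genes were higher and 7 lower in the endothelial gate alone, but 33 of the 40 and all 7 were measured in no other gate.

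Of the glucocorticoid targets, 5 of 14 were higher in the endothelial gate and 0 lower (4 and 0 by TMM). Mt1, a metallothionein that binds zinc and copper, stood at 74.3 CPM in WT CD, 158 CPM in WT HFD and 522 CPM in KO HFD (log2 ratio 1.09, interval 0.75 to 1.44, and 0.44 with barcodes holding a Pdgfra UMI let back in, short of the threshold), and Mt2 at 32.8, 69.7 and 232.5 CPM (1.09). Cebpd, Errfi1 and Lcn2 were the other members. Mt1 with Mt2 and Cp, the ferroxidase ceruloplasmin (185, 315 and 192 CPM), made 3 of the 5 measured genes of iron and metal handling higher. Mt1 in the muscle stem gate had a log2 ratio of -0.48. Of the list of arterial, venous and adhesion genes, 5 of 16 were higher and 1 was lower (5 and 2 by TMM). The median log2 ratio of that list was -0.07, against 0.05 for all genes of the gate. Vwf, von Willebrand factor, stood at 151, 293 and 179 CPM, Icam1, a leukocyte adhesion receptor, at 109, 194 and 143 CPM (log2 ratio 0.83, and 0.47 without lymphatic and mural barcodes), and Edn1, endothelin 1, at 305, 202 and 321 CPM. Of the lipid and capillary list, 1 of 16 was higher (Btnl9, 174 to 320 CPM) and 2 were lower (Tcf15 and Scarb1). Lpl-anchoring Gpihbp1 stood at 783 and 854 CPM, and Cd36, a fatty acid receptor, at 1469 and 1859 CPM, both below the threshold. Without lymphatic and mural barcodes the log2 ratio of Cd36 went from 0.34 to 0.68 and that of Lpl, the lipase, from 0.44 to 0.80, past the threshold, and that of Fabp4 from 0.15 to 0.47.

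In the macrophage gate, genes of lipid-associated macrophages were higher in WT HFD. Such macrophages are known from adipose tissue, where they surround and digest the lipid of dying adipocytes. Of 19 measured members, 10 (52.6%) were higher and 0 lower, against 4.87% of all genes, with a median log2 ratio of 0.59. All 19 passed the floor in both WT libraries. By TMM 9 were higher. Plin2, which coats lipid droplets, stood at 139 CPM in WT CD, 350 CPM in WT HFD and 462 CPM in KO HFD (log2 ratio 1.33, interval 1.15 to 1.52), and was found in 117 of 188 WT CD and 316 of 378 WT HFD barcodes. Cd63, a lysosomal tetraspanin, stood at 213, 443 and 487 CPM (1.06), and Cd36 at 214, 363 and 414 CPM (0.76). KO HFD was the highest for all 3. Ctsd, Lgals3, Ms4a7, Fabp4 and Fabp5 were also higher.

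Cd9, another tetraspanin, stood at 87.4, 305 and 215 CPM (log2 ratio 1.80), and Mmp12, the macrophage elastase, at 83.6, 283 and 393 CPM (1.76), in 14, 42 and 73 barcodes. Members short of the threshold included Trem2, the lipid receptor of these cells (119, 163 and 236 CPM), Lpl (368, 458 and 884 CPM) and Apoe (5735, 6520 and 5830 CPM). Their log2 ratios were 0.45, 0.32 and 0.19. Prdx1, a peroxidase of the NRF2 program, stood at 334, 682 and 688 CPM. Of 10 measured NRF2 and antioxidant genes it was the only 1 called, and the list's median log2 ratio was 0.20. Spp1 and Gpnmb were under the floor in both WT libraries. Without the barcodes described next, the log2 ratio of Plin2 was 1.5, that of Cd63 1.26 and that of Cd9 1.22, whereas that of Fabp5 went from 1.10 to 0.50 and that of Fabp4 from 1.82 to 0.44.

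Among the genes higher in the macrophage gate alone, those with the largest folds came mostly from a small set of barcodes. There were 31 such genes, of which 23 were measured in no other gate. Prg4, which encodes lubricin (chromosome 1, 150449412 to 150466165, minus strand, GRCm38), stood at 148 CPM in 8 barcodes of WT CD, 1264 CPM in 56 of WT HFD and 264 CPM in 16 of KO HFD, 8.53-fold higher in WT HFD than in WT CD. Serpinb2, a serpin of activated macrophages, stood at 31.4, 397 and 42.1 CPM (12.7-fold), Ptgis, prostacyclin synthase, at 16.6, 159 and 31.7 CPM, and Selp, P-selectin, at 8.08, 67.7 and 16.0 CPM. Cd5l, a scavenger receptor protein of tissue macrophages, stood at 18.1, 138 and 31.2 CPM, and Alox15, a lipoxygenase of peritoneal macrophages, at 96.0, 421 and 123 CPM. WT HFD was the highest for every one of these. Prg4, F5 and Alox15 mark large macrophages of the peritoneal and pleural cavities.

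Barcodes with 3 or more UMIs over Prg4, Alox15, F5 and Selp made up 11 of 188 in WT CD (5.85%, interval 2.96 to 10.2%), 57 of 378 in WT HFD (15.1%, 11.6 to 19.1%) and 15 of 358 in KO HFD (4.19%, 2.36 to 6.82%). Prg4, Alox15 and Selp helped define this set. Without its barcodes the log2 ratio was -0.78 for Serpinb2 and -0.29 for Ptgis, which did not. Slpi, a secreted protease inhibitor, stood at 702, 6047 and 2179 CPM, with a log2 ratio of 3.11 in the gate and -3.35 without these barcodes. Thbs1, the gene disrupted in the KO line, stood at 97.4 CPM in WT CD, 354 CPM in WT HFD and 77.4 CPM in KO HFD, and its log2 ratio of 1.86 became -1.22 without them. The capture reads the 3′ end of a transcript, so UMIs of Thbs1 in the KO library do not check its deletion. Mesothelial markers, led by Upk3b, summed to 16.6 and 20 CPM in the macrophage gate of the WT libraries.

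**Figure D4:**
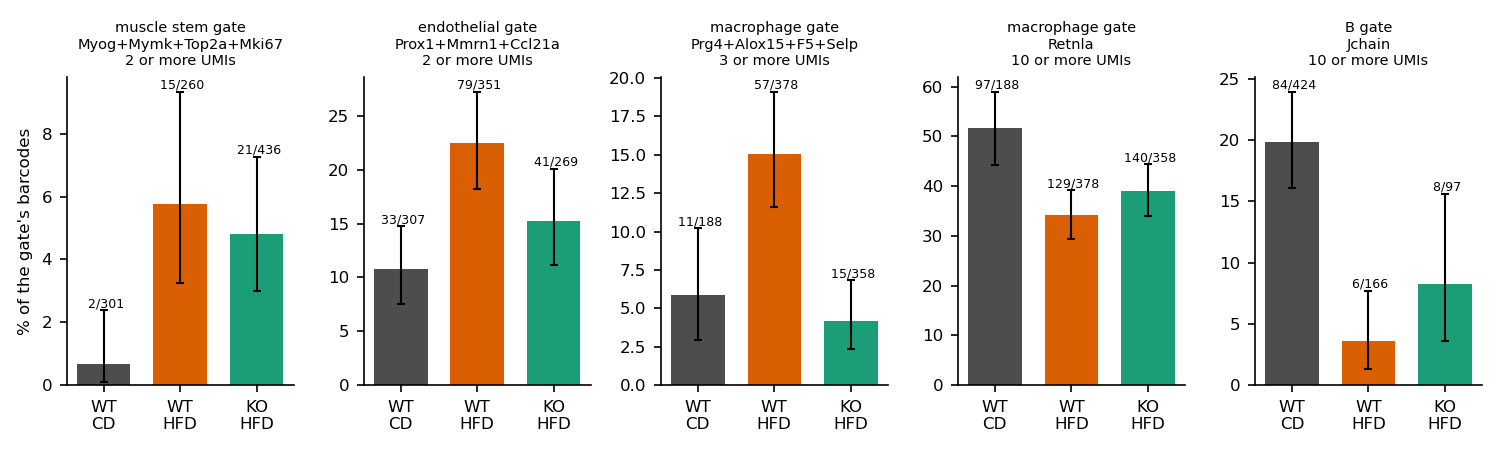
Share of each gate's barcodes (percent, bars from 0) that met a count of UMIs of the genes in the panel title, in WT CD (gray), WT HFD (orange) and KO HFD (green), with exact 95% binomial intervals and the barcodes behind each share. The Prg4, Alox15, F5 and Selp set was 15.1% in WT HFD and the Jchain set was 19.8% in WT CD.

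Inflammatory genes went both ways in the macrophage gate. Of 16 measured, 5 were higher (Il6, Cxcl1, Cxcl2, Ccl3 and Ccl4) and 2 lower (Il1b and Cxcl10). Cxcl2, a neutrophil chemokine, stood at 4630 CPM in WT CD, 9710 CPM in WT HFD and 6288 CPM in KO HFD (log2 ratio 1.07, and 0.41 without the barcodes of the Prg4 set, short of the threshold). Il6 stood at 40.9, 126 and 20.5 CPM and Cxcl1 at 171, 495 and 192 CPM. Il1b, the main secreted form of interleukin 1 in macrophages, stood at 257, 95.3 and 124 CPM, 2.69-fold lower, and its log2 ratio of -1.43 ran from -2.05 to -1.03. Cxcl9, an interferon-gamma induced chemokine, stood at 101, 21.0 and 32.2 CPM (-2.26), in 30, 24 and 26 barcodes. Mmp9, a gelatinase of myeloid cells, stood at 81.7, 24.0 and 37.0 CPM, and it led the neutrophil markers, which summed to 97.9, 47.3 and 80.5 CPM here. Of the other 4 markers, S100a9 and Retnlg were at 0 UMIs in both WT libraries, S100a8 at 0 and 3.03 CPM and Csf3r at 16.1 and 20.2 CPM, and their part in the result was not tested. Mzb1, a plasma cell chaperone, was at 82.2 and 12.6 CPM, and without Jchain-rich barcodes its log2 ratio was 0.11 in place of -2.70. Mucl1 and Ccl8 were lower too, Ccl8 with 647 of its 1149 WT CD UMIs in 1 barcode.

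Resident macrophage genes were higher in 6 of 18 cases and lower in 1 (Ccl8), with a median log2 ratio of 0.45, and by the mean of the 2 libraries 5 of 17 were higher. Barcodes with 2 or more UMIs over Folr2, Cd163, Lyve1 and F13a1, genes of resident macrophages, were 144 of 188 in WT CD (76.6%, interval 69.9 to 82.4%), 261 of 378 in WT HFD (69.0%, 64.1 to 73.7%) and 285 of 358 in KO HFD (79.6%, 75.1 to 83.7%). Pf4, platelet factor 4, stood at 1503 CPM in WT CD, 2681 CPM in WT HFD and 2037 CPM in KO HFD, and Igf1 at 64.6, 117 and 119 CPM. Timd4, a phosphatidylserine receptor of long-lived macrophages, stood at 28.0, 61.7 and 21.3 CPM, and Cd163, the hemoglobin scavenger receptor, at 109, 170 and 160 CPM. Of 8 MHC class II genes 0 were called, with a median log2 ratio of -0.47. Cd74, the invariant chain, stood at 17587, 12343 and 14395 CPM. Retnla, a resistin-like protein of alternatively activated macrophages, stood at 15408, 7547 and 12275 CPM (log2 ratio -1.03), and barcodes with 10 or more of its UMIs were 97 of 188 (51.6%), 129 of 378 (34.1%) and 140 of 358 (39.1%). The monocyte markers, led by Ccr2, summed to 507, 356 and 423 CPM in this gate. Dendritic cell markers, led by Cd209a, summed to 40.4, 15.2 and 17.9 CPM, and their part in these values was not tested.

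Of 18 genes lower in the B gate alone, none measured in another gate, 12 were immunoglobulin segments. Ighg2c, the IgG2c heavy chain, had 11440 UMIs in 9 barcodes of WT CD and 0 UMIs in WT HFD and KO HFD, at least 1145-fold lower against a floor of 3 counts. Igkv3-2 had 1988 UMIs in 33 barcodes of WT CD and 0 in WT HFD, and Ighg3 had 2479 of its 2513 WT CD UMIs in 1 barcode. Xbp1, the transcription factor of the secretory program of plasma cells, stood at 257 CPM in WT CD, 68.9 CPM in WT HFD and 194 CPM in KO HFD (log2 ratio -1.90), and Herpud1, an endoplasmic reticulum stress protein, at 347, 180 and 225 CPM. Plasma cell markers, led by Jchain in WT CD and by Mzb1 in WT HFD, summed to 13798, 2479 and 9105 CPM in the B gate.

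Of 16 measured B cell subset and activation genes, 4 (25%) were higher by CPM, against 19.8% of all genes. Zbtb32, S1pr1 and Klf2 were among them, and 1 gene, Ighm, was lower. By the mean of the 2 libraries 3 of 15 were higher, and by TMM 0 were. Klf2, which keeps lymphocytes quiescent and circulating, stood at 420, 781 and 693 CPM (log2 ratio 0.90, 0.49 by TMM). S1pr1, the receptor for exit from tissue, stood at 74.2, 128 and 126 CPM (0.79, 0.38 by TMM). Macrophage genes were among those higher in the B gate alone by their fold, including Ccl9 (25.8, 89.8 and 90.1 CPM), Mgl2, Mrc1 (23.1, 66.2 and 43.2 CPM) and Fn1. Macrophage markers, led by Lyz2, summed to 892, 2023 and 1855 CPM there, and 34 of 424 WT CD and 26 of 166 WT HFD barcodes held 2 or more of their UMIs. Their part in these values was not tested. Of 12 measured lipid-associated macrophage genes, 9 were higher in the B gate (5 by TMM, and 7 of 10 by the mean of the 2 libraries). The 23 members of that list summed to 1818, 3322 and 2312 CPM there, and the part of macrophage markers in this was not tested. Igkv1-135, the variable segment with the largest fold among the genes higher in the B gate alone, had 88 of its 89 WT HFD UMIs in 1 barcode. MHC class II genes were higher in 5 of 9 cases in the B gate by CPM and in 1 by TMM.

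The other lists gave few calls. The clock list had 4 members measured in the muscle stem gate (Clock, Bhlhe40, Rora and Nfil3) and 2 in each other gate, with 0 called. The 2 were Clock and Bhlhe40 in the endothelial gate and Bhlhe40 and Nfil3 in the macrophage and B gates. MHC class I genes had 3, 10, 9 and 9 members measured in the muscle stem, endothelial, macrophage and B gates, with 0 called by CPM. By TMM 2 MHC class I genes were lower in the B gate. In each gate 26 large-subunit ribosomal protein genes were measured, with 0 called. Mitochondrially encoded genes had 1 call, in the B gate, and by TMM 0 there and 2 lower in the muscle stem gate. Of 19 interferon genes in the endothelial gate, 1 was higher and 2 lower. Hypoxia and glycolysis genes had 1 member higher in each of the muscle stem, endothelial and B gates. That count was 0 in the endothelial gate by the mean of the 2 libraries and 0 in the B gate by TMM. Insulin and FoxO targets had 1 call, Trib1 in the endothelial gate. Its log2 ratio of 0.86 was 0.08 without lymphatic barcodes, short of the threshold, and -0.11 without lymphatic and mural barcodes. Fatty acid synthesis genes had 1 call, Scd1 in the B gate (88.0 and 141 CPM, 0.27 by TMM on the log2 scale). By TMM 1 of the 3 members measured in the endothelial gate was lower. LXR targets had 1 higher member in the endothelial gate, Abca1, a cholesterol exporter, and 2 in the B gate, Apoe and Pltp. By TMM 1 was higher and 1 lower in the endothelial gate, and 1 was higher in the B gate. Without Jchain-rich barcodes the log2 ratio of Apoe in the B gate went from 0.83 to 0.37, short of the threshold. MHC class II genes were higher in 4 of 4 cases in the endothelial gate, where 134 of the 151 UMIs of H2-Aa in WT HFD lay in 1 barcode and its log2 ratio without its 2 top barcodes was -0.44. Ccl2, a monocyte chemokine, was lower in the muscle stem gate at 229 and 137 CPM (log2 ratio -0.74), and with the gate threshold doubled its log2 ratio was -0.02.

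**Figure D5:**
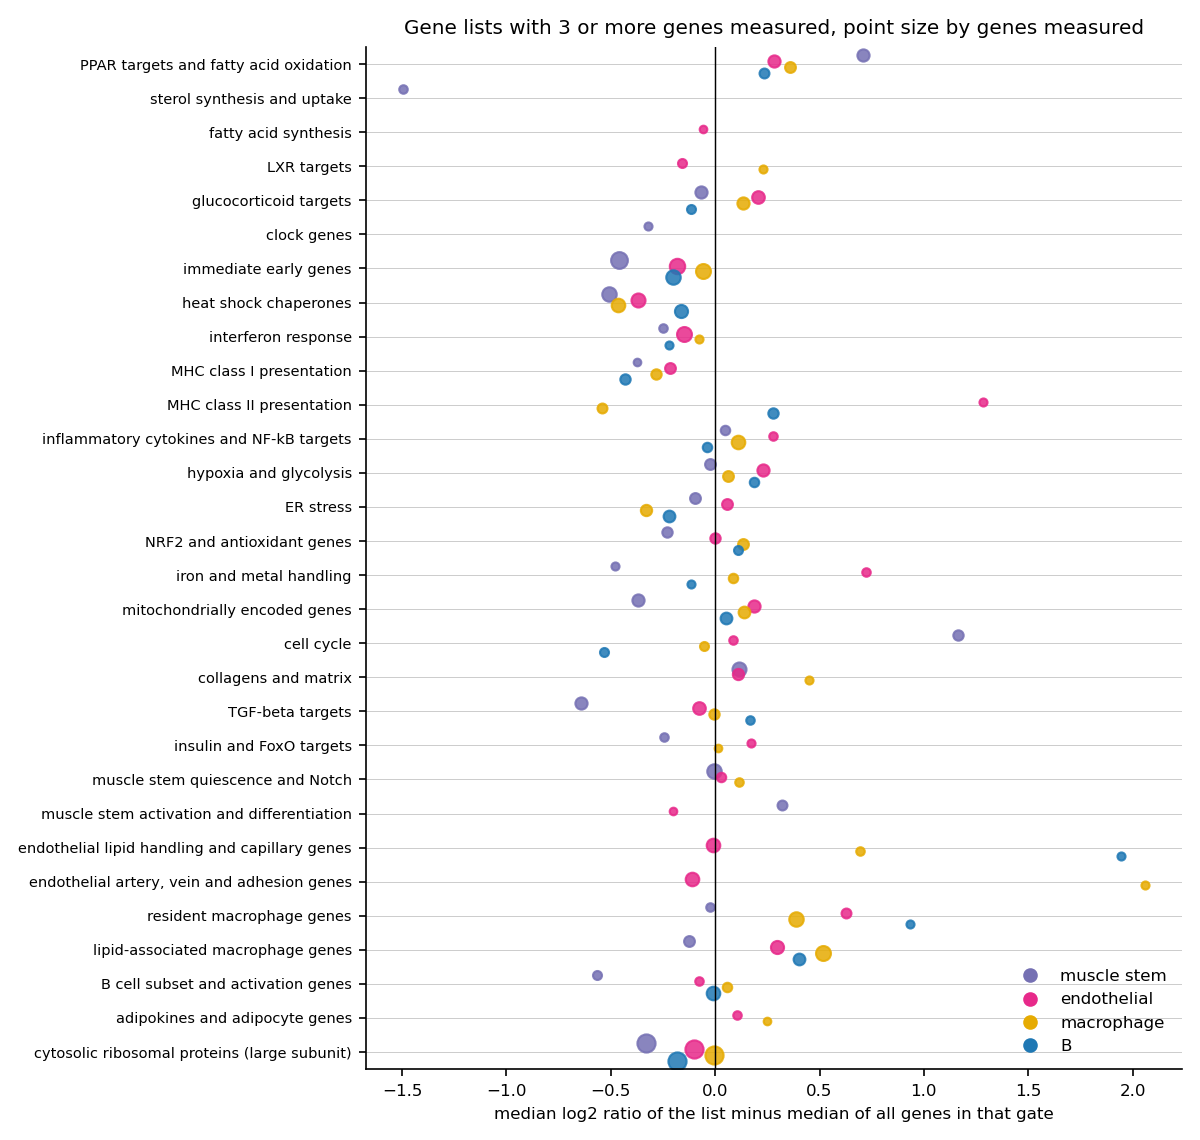
Median log2 ratio of WT HFD to WT CD for each gene list minus the median of all measured genes of that gate, for lists with 3 or more measured genes; point size grows with the number measured and color gives the gate. In the muscle stem gate the sterol list had a median of -1.31 and the cell cycle list a median of 1.35. There 4 of 5 sterol genes passed the floor through WT CD only, and 4 of 9 cell cycle genes through WT HFD only. These medians therefore rank no list.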

How the data were processed

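The authors counted UMIs with Cell Ranger (6.1.1 per the labels) on GRCm38 and deposited unnormalized counts, 1 value per barcode and each of 32285 genes. All barcodes were kept, and doublets were not called. Counts were summed per gate and library in Python 3.11.15 (numpy 2.4.6, scipy 1.17.1, pandas 2.3.3, matplotlib 3.10.9) and scaled to the gate's total (CPM); TMM came from edgeR 4.0.16 in R 4.3.3. Intervals are exact Poisson or Clopper-Pearson at 95% and cover counting error only. Scripts were tested on simulated data. With 1 library per diet no test was run.

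Members, thresholds and the 30 gene lists were chosen with earlier results of these data known. Genes were named by rule: those called alike in 3 or 4 gates; for each gate, the 5 highest and 5 lowest of the genes past 2-fold there and under 1.2-fold elsewhere; the 6 most opposed between gates; the 3 most abundant of each list; and the gate genes. Other genes named were chosen after their values were seen. The subsets of barcodes within gates were also defined after values were seen. Promoters came from RefSeq; Fabp4, Ighm and Igkc were not matched there. Some genes are not reported here.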

Additional observations from a re-analysis of the deposited data

Results flagged for a closer look

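A total of 28 genes were past 1.5-fold higher in 1 gate and past 1.5-fold lower in another, and the 6 most opposed, with 3 others named elsewhere in the text, are given here with the difference of their 2 log2 ratios. None of these differences was tested, since each gate has 1 library per diet.

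Retnla differed by 6.27, from 7.04 to 266 CPM in the endothelial gate, where 451 of the 462 UMIs in WT HFD lay in 1 barcode, and from 15408 to 7547 CPM in the macrophage gate. Without barcodes in more than 1 gate its endothelial log2 ratio was -0.14. Cdkn1c, an inhibitor of the cell cycle, differed by 5.12, from 30.3 to 644.5 CPM in the muscle stem gate, with 470 UMIs in 1 barcode, and from 306 to 187 CPM in the endothelial gate. In the muscle stem gate its log2 ratio was -0.02 with the gate threshold doubled and -0.07 without the Myog and Top2a barcodes. Cd74 differed by 5.03, from 106 to 234 CPM in the endothelial gate, with 347 of 406 UMIs in 1 barcode, and from 107 to 7.21 CPM in the muscle stem gate. Without barcodes in more than 1 gate its endothelial log2 ratio was -0.43.

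Slpi differed by 3.96, from 702 to 6047 CPM in the macrophage gate and from 450 to 249 CPM in the B gate, where it was found in 69 WT CD and 3 WT HFD barcodes. Without the barcodes of the Prg4 set its log2 ratio in the macrophage gate was -3.35. In the B gate the log2 ratio of -0.85 was -3.43 without Jchain-rich barcodes, and it ran from -9.11 to -0.48 over the alternatives. Hist1h1b, a linker histone of dividing cells, differed by 3.69, from 20 to 123 CPM in the muscle stem gate and from 80.7 to 38.5 CPM in the B gate. Stmn1, a regulator of microtubules, differed by 3.30, from 86.4 to 328 CPM in the muscle stem gate and from 110 to 42.6 CPM in the B gate.

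Hspa1a differed by 2.45 between the B and endothelial gates, and Hspa1b by 2.09 between the B and muscle stem gates, but without barcodes in more than 1 gate their log2 ratios in the B gate were -0.16 and -0.31. Ccl2 differed by 1.78, with a log2 ratio of 1.04 in the B gate and -0.74 in the muscle stem gate, or -0.02 there with the gate threshold doubled.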

How the results depend on the processing

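No paired analysis was possible because each diet has 1 library and no test was made. Counting error alone limits genes near 50 CPM, and differences between mice were not measured. Over all settings, the count of PPAR and fatty acid oxidation genes higher in the muscle stem gate ran from 7 to 13 and that of lipid-associated genes higher in the macrophage gate from 7 to 13. Of 151 gene values past 1.5-fold, 132 were still past it by TMM and 136 after thinning to 3000 UMIs, and without the subsets of barcodes 102 of the 141 that had a value. No ratio is given where both libraries held 3 UMIs or fewer or where the bound from a library at 0 did not set the direction. This left no value for Myog and Actc1 (muscle stem) with doubled thresholds; Igkv19-93 (muscle stem), Mzb1 (macrophage) and Pf4 (B) without barcodes in more than 1 gate; Slc45a3 and Reln (endothelial) without lymphatic barcodes; Igkv19-93 and Ighg2c (B) without Jchain barcodes; Nts, Igkv19-93 and Igkv1-135 (B) without their 2 top barcodes; and Myog, Actc1, Top2a, Hist1h1b, Myh11, Slc45a3, Reln, Prg4, Selp and Ighg2c without the subsets. The cause of the shifts below was not tested unless the setting itself removes the genes or barcodes.

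By TMM the higher and lower genes numbered 151 and 164 in the muscle stem gate and 63 and 104 in the B gate, with 117 lower in the endothelial gate and 1 higher in 3 or 4 gates. A floor of 20 CPM, which measures more genes, gave 899 and 196 (muscle stem), 646 and 242 (endothelial), 291 and 173 (macrophage) and 1116 and 94 (B), with 16 higher and 14 lower in 3 or 4 gates, 401 in 1 gate alone, 9 sterol genes lower and 13 cell cycle genes higher. A minimum of 20 UMIs with no floor gave 1459 and 333, 1043 and 335, 968 and 450, and 2039 and 506, with 89 and 19 in 3 or 4 gates, 421 in 1 gate alone, and 11 sterol and 14 cell cycle genes. With barcodes weighted alike, 209 genes were higher in the B gate and 3 cell cycle genes in the muscle stem gate. With the mean of the 2 libraries at 50 CPM, added after seeing the data, 121 genes were past 2-fold in 1 gate alone, 1 sterol gene was lower and 4 cell cycle genes were higher. Without barcodes in more than 1 gate, 2 genes were higher in 3 or 4 gates. Thinning gave 153 lower in the endothelial gate, 196 higher and 117 lower in the macrophage gate, 7 higher in 3 or 4 gates and 4 cell cycle genes. Without the barcodes highest in Dcn and Col3a1, 111 genes were lower in the endothelial gate and 7 chaperones in the macrophage gate. Without Jchain barcodes 121 genes were higher and 24 lower in the B gate, and without immunoglobulin genes 109 were higher. Without all subsets, a setting chosen after seeing the data, 141 genes were higher in the endothelial gate, 121 higher and 24 lower in the B gate, 121 past 2-fold in 1 gate alone, and 2 cell cycle genes higher.

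Reversed log2 ratios were as follows. Without barcodes in more than 1 gate they were -0.31 for Hspa1b and -0.16 for Hspa1a (B), -0.11 for Nts (muscle stem), and -0.14 for Retnla, -0.43 for Cd74, -0.66 for H2-Eb1 and -0.43 for H2-Aa (endothelial). With gate thresholds doubled they were -0.02 for Cdkn1c (muscle stem), and -0.98 for Cd74, -2.23 for H2-Eb1 and -1.16 for H2-Aa (endothelial). Without the barcodes highest in Dcn and Col3a1 they were -0.41 for Retnla, -3.58 for Cd74, -4.43 for H2-Eb1, -3.82 for H2-Aa and -0.10 for Lgals1 (endothelial). In barcodes with Folr2, Cd163, Lyve1 or F13a1 only, they were -1.65 for Serpinb2, -3.65 for Ptgis, -4.39 for Prg4, -1.06 for Selp, -4.15 for Slpi and -1.05 for Thbs1 (macrophage). Without Jchain barcodes they were 0.86 for Tmem176a, -1.79 for Igkv1-135 and 0.08 for Ighg3 (B), and 0.11 for Mzb1 (macrophage). Without all subsets they were the same 3 values in the B gate, and -0.07 for Cdkn1c (muscle stem), -0.11 for Trib1 (endothelial), and -0.78 for Serpinb2, -0.29 for Ptgis, -3.35 for Slpi and -1.22 for Thbs1 (macrophage). Without the 2 top barcodes of a gene they were -0.02 for Retnla, -2.08 for Cd74, -0.66 for H2-Eb1 and -0.44 for H2-Aa (endothelial).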
